A study of Ovis aries with 2 samples.

Results

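The annotated sheep genes that carry only a GLEAN gene prediction identifier, and neither a cattle nor a human protein identifier, were described in the biceps brachii muscle of 2 breeds. All genes whose identifier starts with GLEAN_ and that had at least 1 unique read in either library were taken, which gave 1943 of the 14290 genes listed (13.6%). The other genes carried a cattle Ensembl protein identifier (6351 genes) or a human one (5996 genes). The rule used the identifier and the presence of a read, and no level or ratio.

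The samples were biceps brachii, a forelimb muscle, from ewes of the Dorper (DP) and small-tailed Han (SH) breeds, 11 months old. Dorper is a meat breed of South African origin, and the small-tailed Han sheep is a Chinese breed known for its large litters. The mRNA was sequenced as 1 library per breed, and the labels name no treatment. How many ewes stood behind a library was not given in the sources used here. With 1 library per breed, breed, animal and library cannot be told apart, no difference between DP and SH has a replicate check, and intervals cover counting error only. The DP library held 16.7 M unique reads on genes and the SH library 20.3 M (M, 1000000 reads). In bulk muscle, fewer cells of a type and less RNA per cell cannot be told apart. The tables hold no gene names, so the tissue was not checked against muscle markers.

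GLEAN is a program that merges several lines of evidence for genes, such as ab initio predictions, protein alignments and transcribed sequence, into 1 consensus gene set. A gene known only as a consensus prediction may be a real gene that changed quickly in evolution, a fragment of a longer gene, a copy that no longer works or a false prediction. Reads from a tissue are one of the ways to tell which predicted parts are transcribed. The identifiers say nothing of what the genes do, so no function is given for any GLEAN gene. The RefSeq list of sheep genes used here holds no identifiers of this kind, so whether it has the same genes under other names was not tested. None of the GLEAN identifiers carried a suffix for a further copy, whereas 313 other identifiers did. The sequences and positions of the GLEAN genes were not analysed here.

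The GLEAN genes were short. Their median length was 654 bp, with quartiles of 408 and 1173 bp, against medians of 1191 bp for genes with a cattle identifier and 1308 bp for genes with a human identifier. Under 500 bp were 710 of the GLEAN genes (36.5%), 12.7% of the cattle-named genes and 11.8% of the human-named genes. The longest GLEAN gene, GLEAN_10015057, had 9687 bp, and the shortest, GLEAN_10010299, had 156 bp. The length of every gene in all 3 groups was a multiple of 3, so the lengths are coding lengths without untranslated regions.

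Few reads fell on most GLEAN genes. The median GLEAN gene had 12 reads in DP and 15 in SH. Cattle-named genes had medians of 106 and 123 reads, and human-named genes of 128.5 and 148 reads. Fewer than 10 reads in the libraries together were found on 719 GLEAN genes (37.0%), and at least 1000 on 208 (10.7%). The corresponding shares over all genes were 16.6% and 22.9%.

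Per length, the GLEAN genes were also lower. The RPKM is the number of reads scaled to gene length and library size. The median RPKM of GLEAN genes was 1.12 in DP and 1.05 in SH, genes at 0 included. It was 5.24 and 5.08 for cattle-named genes and 5.63 and 5.42 for human-named genes. At the median length of a GLEAN gene, a single read gave 0.0918 RPKM in DP and 0.0752 RPKM in SH. In DP 400 GLEAN genes (20.6%) and in SH 372 (19.1%) had an RPKM of 10 or more, against 35.4% and 34.5% of all genes. The level was low in both libraries to a like degree, and the quartiles of DP and SH lay close together in each group of genes.

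**Figure D1:**
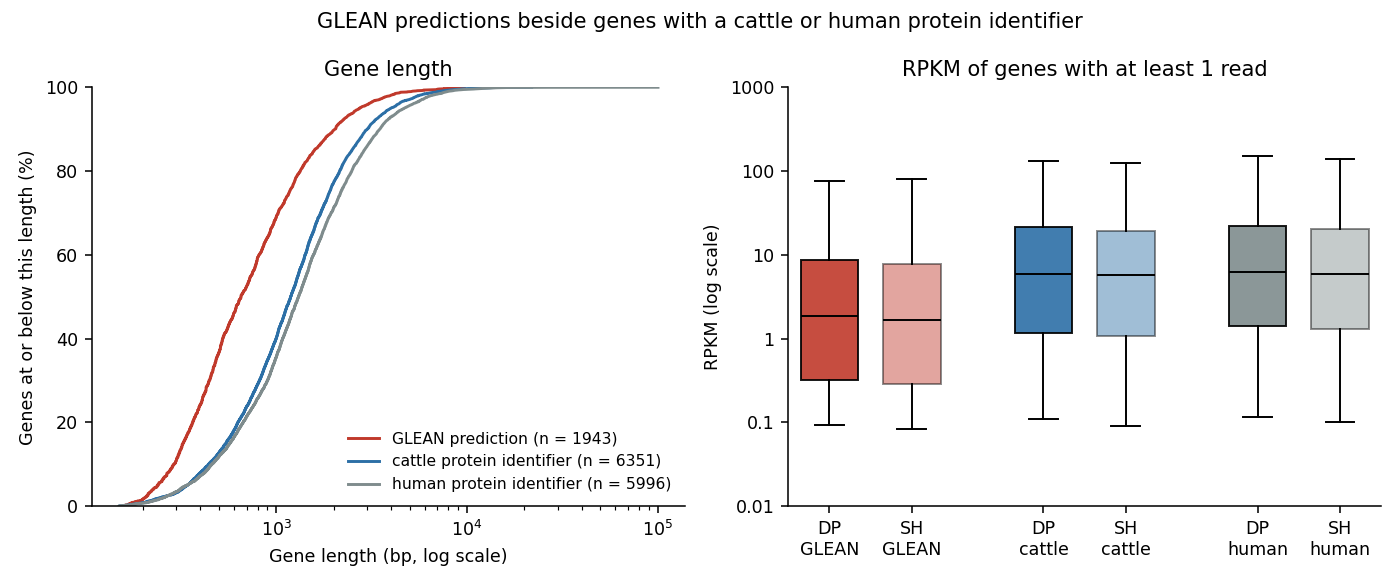
Left, the share of genes at or below each length (bp, log scale) for GLEAN genes and genes with a cattle or human protein identifier. Right, RPKM (log scale) of genes with at least 1 read in Dorper (DP, dark) and small-tailed Han (SH, pale), with boxes from the lower to the upper quartile, a line at the median and whiskers at the 5th and 95th percentiles. The GLEAN curve lies to the left of the others, with a median of 654 bp, and the GLEAN boxes lie below the others in both libraries.

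The gap in level was wider among genes under 500 bp than among longer ones. From 300 to 499 bp, the median RPKM was 0.685 in DP and 0.610 in SH for 500 GLEAN genes, against 9.09 and 8.66 for 602 cattle-named genes and 12.6 and 12.5 for 498 human-named genes. From 1000 to 1999 bp, it was 2.39 and 2.28 for 403 GLEAN genes, against 4.66 and 4.44 for cattle-named and 5.12 and 4.93 for human-named genes. At least 10 reads in total were found on 48.8% of the GLEAN genes of 300 to 499 bp and on 81.1% of those of 1000 to 1999 bp. The share thus rose with length among GLEAN genes, while it was already 82.4% among cattle-named genes of 300 to 499 bp.

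Reads were 90 bp long and lay wholly within the genes. This was read from the 1024 gene entries with exactly 1 read, in which the covered part came to between 89.8 and 90.3 bp. A whole read can start at fewer positions than the gene has bases, which lowers the RPKM of short genes by construction. Scaled to the number of start positions, an added setting picked with the values known, the median RPKM of GLEAN genes was 1.46 in DP and 1.28 in SH, against 5.77 and 5.64 for cattle-named genes. From 300 to 499 bp it was 0.860 and 0.790, against 11.9 and 11.3 for cattle-named genes.

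A few GLEAN genes were very abundant. The GLEAN genes together took up 5.02% of the DP reads (95% exact interval from 5.01 to 5.03%) and 5.86% of the SH reads (from 5.85 to 5.87%). A single gene, GLEAN_10002611 (2640 bp), took 235974 reads in DP and 495767 in SH, that is, 28.2% and 41.6% of the GLEAN reads. Without it, the other GLEAN genes made up 3.60% of the DP reads and 3.42% of the SH reads. Where instead the 10 genes with the most reads, of which GLEAN_10002611 is 1, were left out of both the GLEAN reads and the total, the GLEAN genes made up 5.20% (DP) and 5.37% (SH), the reverse order. The 100 GLEAN genes with the most reads in each library made up 80.3% (DP) and 84.0% (SH) of the GLEAN reads.

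By RPKM, GLEAN_10002611 had the rank 21 among all genes in DP and 11 in SH, with 5366 in DP and 9237 in SH. Its log2 ratio of SH over DP was 0.78 (95% exact interval from 0.78 to 0.79), under the fold criterion of 1. Exactly the same share of its length was covered in both libraries, 93.4%, and 174 bp stayed without a unique read in each in spite of these depths. The next by mean RPKM was GLEAN_10018658 (519 bp), whose RPKM was 2711 in DP and 2238 in SH, with coverage of 67.2% and 67.6%. GLEAN_10015116 (1749 bp) followed, with 2021 and 2688 and coverage of 99.9% in both libraries. Among the 1000 genes of highest RPKM, 81 were GLEAN genes in DP and 88 in SH, and none was among the first 10.

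The other 3 of the 6 GLEAN genes with the highest mean RPKM had lower values in SH than in DP. GLEAN_10001086 (285 bp) went from an RPKM of 1750 (8308 reads) in DP to 584 (3384 reads) in SH, a log2 ratio of -1.58 (95% exact interval from -1.64 to -1.53). GLEAN_10017470 (387 bp) had 1414 and 883, a log2 ratio of -0.68. GLEAN_10009871 (2010 bp) had 1154 and 1094, a log2 ratio of -0.08, a small fall that did not hold under other scalings of the libraries. Of the 6 genes, GLEAN_10001086 alone was past the fold criterion. The 6 GLEAN genes with the most reads also included GLEAN_10003535 (4107 bp), with 12847 reads in DP and 17373 in SH, and GLEAN_10005034 (3984 bp), with 7162 and 19618. The RPKM of the latter was 108 in DP against 242 in SH, and its log2 ratio 1.17 (95% exact interval from 1.13 to 1.21).

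Large parts of many GLEAN genes had no unique read, even at depths that covered other genes almost fully. The coverage is the percentage of the gene length under at least 1 unique read. Over genes with at least 1 read, the median coverage of GLEAN genes was 55.4% in DP and 56.0% in SH, against 92.0% and 93.1% for cattle-named genes and 92.3% and 93.3% for human-named genes. Coverage rises with reads, so genes with like numbers of reads were also compared. At 30 to 99 reads in DP the median was 73.1% for 274 GLEAN genes, 86.7% for 1051 cattle-named genes and 86.4% for 984 human-named genes. At 300 to 999 reads in DP it was 90.6% for 165 GLEAN genes, against 98.2% for both other groups.

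The SH library gave the same order at these depths. At 30 to 99 reads the medians were 74.1%, 87.7% and 87.1%, and at 300 to 999 reads 88.5%, 98.3% and 98.1%. At 1 to 9 reads the order was turned, with 28.1% in DP for GLEAN genes and 22.8% for cattle-named genes, the GLEAN genes with so few reads being shorter (median of 498 bp against 990 bp). Reads of 90 bp spread evenly would have covered a median of 96.6% of the GLEAN genes with 30 to 99 reads in DP, and the observed coverage was a median of 0.77 of the even spread. For cattle-named genes at this depth it was 0.92. Read pairs are not independent, so even spread is only a yardstick that both groups share.

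**Figure D2:**
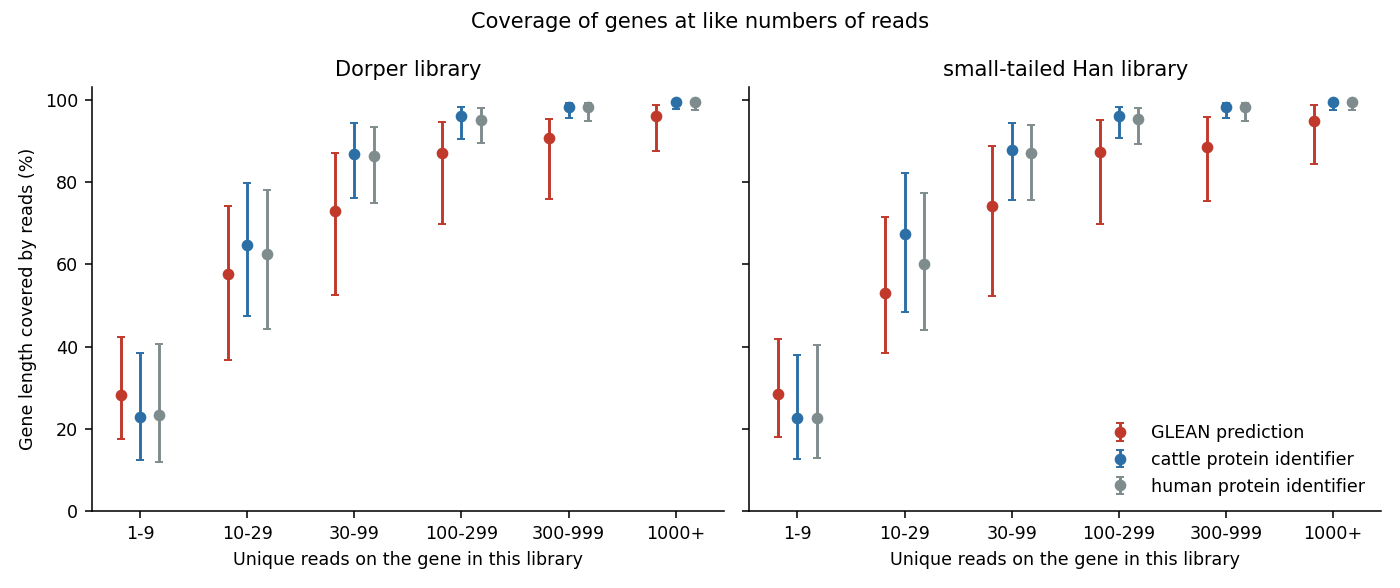
Percentage of the gene length covered by unique reads against the number of reads on the gene, in the Dorper (left) and small-tailed Han (right) libraries. Points are medians and bars reach from the lower to the upper quartile of the genes. From 10 reads upward the GLEAN medians lie below those of the cattle- and human-named genes in both libraries, as in the 300 to 999 bin, with 90.6% and 88.5% for GLEAN genes.

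The covered share of most GLEAN genes was close in the 2 libraries. Among the 457 GLEAN genes with at least 100 reads in both libraries, coverage differed between DP and SH by a median of 1.20 percentage points, and by at most 5 points in 384 (84.0%). Over all genes with such reads the median difference was 0.71 points, and 91.2% were within 5 points. Across the 457 GLEAN genes, which are not independent replicates and share both libraries, Pearson's r of the coverage was 0.95 and Spearman's rho 0.93, and over all genes with such reads they were 0.93 and 0.86. Coverage was under 50% in both libraries in 35 GLEAN genes (7.66%), against 13 of 3109 cattle-named genes and 4 of 3144 human-named genes. Under 75% in both were 22.1% of these GLEAN genes, against 2.35% and 2.39%, and at least 95% was reached in both by 128 GLEAN genes (28.0%), against 67.5% and 65.2%.

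The 35 GLEAN genes under 50% had between 105 and 9096 reads per library, and their median length was 909 bp. An even spread of their reads would have covered a median of 99.5% in DP and 99.6% in SH. Their median RPKM was 17.4 in DP and 18.4 in SH, against 19.7 and 18.4 over all genes with at least 100 reads in both libraries. Past the fold criterion were 2 of the 35, and 6.92% of all genes with such reads. In such a gene the RPKM is an average over a read part and an unread part of the model.

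The 208 GLEAN genes with at least 1000 reads in total were ranked by the higher of their coverages in the 2 libraries. The lowest was that of GLEAN_10016818 (927 bp). It had 1171 reads in DP and 1072 in SH, which covered 25.6% and 25.5% of it. In DP alone GLEAN_10014463 was lower, at 23.8%, but it had 35.4% in SH. GLEAN_10017606 (636 bp) had 2271 and 2397 reads on 30.8% and 31.1%. GLEAN_10012929 (903 bp) had 1718 and 2030 reads on 34.0% and 34.2%, and GLEAN_10014063 (1047 bp) had 1069 and 1244 reads on 35.3% and 35.2%. All 4 differed by less than 0.5 on the log2 scale between the libraries, and the covered share was the same in both to within 0.5 percentage points. Ranking by the higher coverage favours genes whose coverage is alike in both libraries, so this likeness is in part set by the choice.

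**Figure D3:**
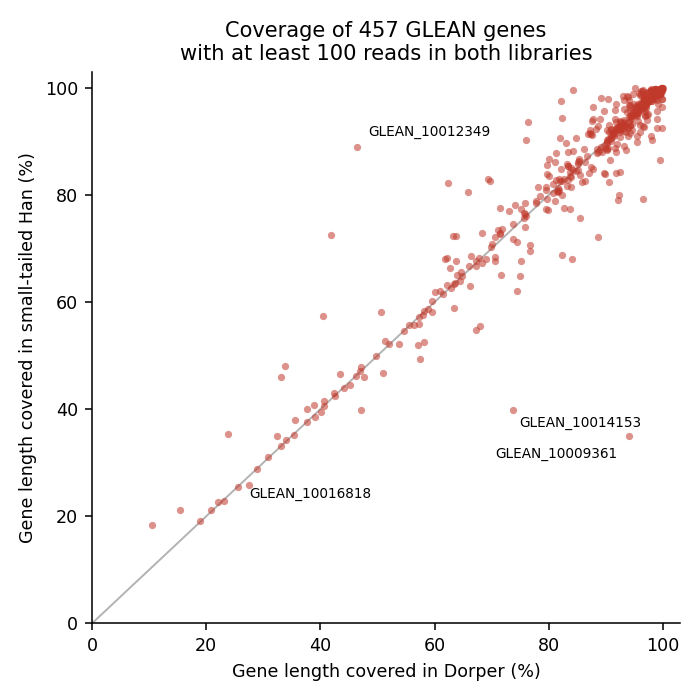
Percentage of the gene length covered in Dorper (x axis) and small-tailed Han (y axis) for each of the 457 GLEAN genes with at least 100 reads in both libraries, with a line of equal coverage. Most genes lie near the line at every coverage, 384 within 5 points, and GLEAN_10009361 lies farthest from it with 94.0% and 34.9%.

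Some GLEAN genes with at least 100 reads in both libraries were covered differently in the 2 libraries. Such differences were not particular to GLEAN genes. The largest was 59.1 points among GLEAN genes, 53.2 among human-named genes and 39.1 among cattle-named genes with such reads. Among the GLEAN genes with such reads, the difference was widest in GLEAN_10009361 (684 bp). In this gene 6735 reads covered 94.0% of the length (643 bp) in DP and 490 reads covered 34.9% (239 bp) in SH. Reads spread evenly would have covered almost all of it at either depth. The next 3 genes, chosen after their values were seen, differed less in their reads. GLEAN_10012349 (453 bp) had 461 reads in DP and 532 in SH, on 210 and 403 bp. GLEAN_10014153 (732 bp) had 577 and 534 reads on 73.8% and 39.8%, and GLEAN_10005634 (1143 bp) had 321 and 214 reads on 41.9% and 72.5%. In GLEAN_10012349 and GLEAN_10005634 the larger part was covered in SH, although the RPKM was lower there, at 61.1 in DP and 57.8 in SH for the former and 16.9 and 9.21 for the latter.

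Most GLEAN genes were read in both breeds. Reads were found on 1717 GLEAN genes in DP and 1715 in SH, and on 1489 (76.6%) in both, against 90.7% of the cattle-named and 91.9% of the human-named genes. In DP only were 228 GLEAN genes (11.7%) and in SH only 226 (11.6%), although the SH library was 1.22 times as deep, and over all genes the shares were 5.09% and 5.61%. Thinned to the DP depth, 1674 GLEAN genes were expected with a read in SH. Of the genes seen in one library, 107 in DP and 110 in SH had a single read, and 193 in each had at most 3 reads, which is the limit that a count of 0 allows.

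There were 9 GLEAN genes with 10 or more reads in DP and 0 in SH, and 3 with 10 or more in SH and 0 in DP. These were 0.46% and 0.15% of the GLEAN genes, and over all genes such genes made up 0.33% and 0.30%. The highest in DP were GLEAN_10005115 with 28 reads, GLEAN_10013056 with 22 and GLEAN_10013648 with 21, against 0 in SH. Set against the limit of 3 reads for a count of 0, with the reads in DP taken as free of error, these were at least 11.4-fold, 8.95-fold and 8.54-fold lower in SH. With the counting error of both libraries, the 95% exact limits nearest to no change were 8.67-fold, 6.69-fold and 6.36-fold lower. In SH, GLEAN_10003998 had 54 reads, GLEAN_10010632 had 24 and GLEAN_10003382 had 12, against 0 in DP, and were at least 14.7-fold, 6.55-fold and 3.28-fold higher on the same terms. Here the exact limits were 11.6-fold, 4.93-fold and 2.28-fold higher. In GLEAN_10003998 (1104 bp) the 54 reads covered 29.9% of the gene, whereas the 28 reads of GLEAN_10005115, which has the same length, covered 60.0%.

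The difference between the breeds was described by the log2 RPKM ratio of SH over DP, with 0 replaced by an RPKM of 0.01 and an absolute value of at least 1 as the criterion. The criterion was met by 836 GLEAN genes (43.0%), 439 of them lower in SH and 397 higher. Over all genes it was met by 28.4%, with 15% lower and 13.4% higher. One of the libraries had 0 reads in 451 of the 836, where the size of the ratio is set by the value put in place of 0. If every gene had been at the same level in DP and SH, counting error by itself would have put 521 GLEAN genes past the criterion.

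At like read numbers the shares of GLEAN genes past the criterion lay close to those of the other genes. With 10 to 29 reads in total it was 45.9% of the GLEAN genes, against 51.6% of the cattle-named and 51.6% of the human-named genes. With 30 to 99 reads it was 30.5%, against 30.8% and 32.1%, and with at least 1000 reads 8.17%, against 8.49% and 7.92%. Among the 606 GLEAN genes with at least 50 reads in both libraries, 50 (8.25%) were past the criterion, 30 lower and 20 higher in SH, and over all genes with such reads it was 8.45%, with 5.21% lower and 3.24% higher. The criterion and an exact two-sided binomial test on the reads, adjusted over all genes by Benjamini-Hochberg, were both met by 223 GLEAN genes (11.5%), 134 lower and 89 higher. Over all genes this was 13.4%, with 7.58% lower and 5.82% higher. Such a test on reads says only how these libraries differ. The median log2 ratio of the GLEAN genes read in both libraries was -0.11, with quartiles of -0.56 and 0.37, beside a median of -0.08 over all genes.

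**Figure D4:**
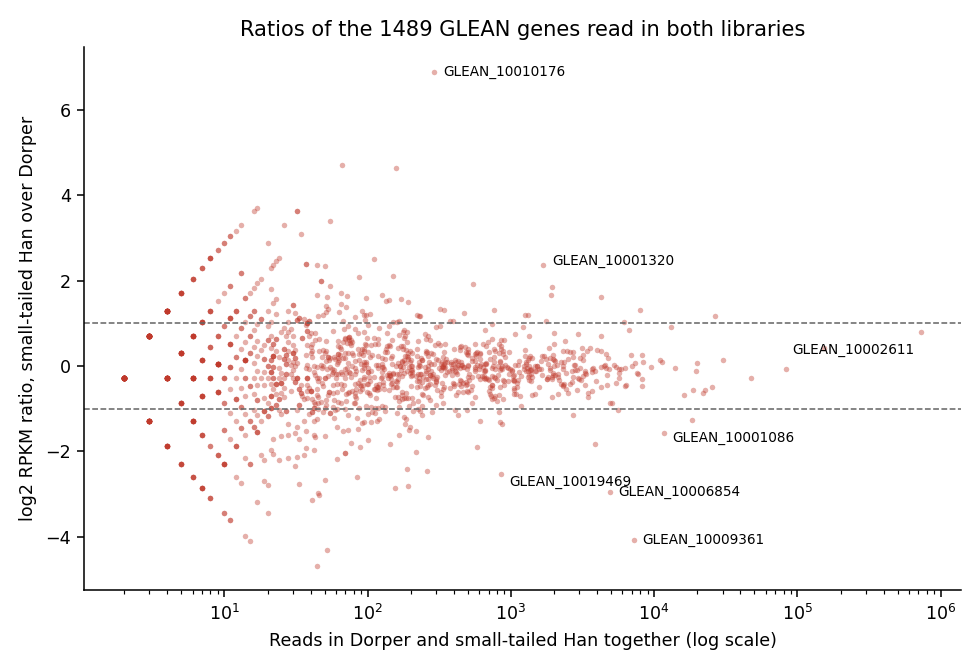
log2 RPKM ratio of small-tailed Han over Dorper against the reads of both libraries together (log scale) for the 1489 GLEAN genes read in both libraries, with dashed lines at -1 and 1. The ratios spread widely at low read numbers and narrow with depth, and GLEAN_10010176 (6.89) above and GLEAN_10009361 (-4.07) and GLEAN_10006854 (-2.97) below lie apart from the genes of like depth.

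The largest falls in SH among the GLEAN genes with at least 50 reads in both libraries were as follows. GLEAN_10009361 went from an RPKM of 591 in DP to 35.2 in SH, which is 16.8-fold lower (log2 ratio -4.07, 95% exact interval from -4.20 to -3.94). This is the gene whose reads in SH lay on 239 bp only, against 643 bp in DP. GLEAN_10006854 (4455 bp) had 4248 reads in DP against 664 in SH, 7.81-fold lower (log2 ratio -2.97, from -3.09 to -2.85), with 99.8% and 96.4% covered. GLEAN_10019469 (1107 bp) had 701 and 149 reads, 5.74-fold lower, and coverage of 98.9% and 92.4%.

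The next falls were between 3.54-fold and 4.08-fold. GLEAN_10004916 (654 bp) had 167 reads in DP against 50 in SH, a log2 ratio of -2.03. GLEAN_10002801 (1701 bp) had 437 and 144 reads, a log2 ratio of -1.89, and GLEAN_10008063 (552 bp) had 2868 and 990 reads, a log2 ratio of -1.82. In 5 of the 6 genes that fell most, over 90% of the gene was covered in both libraries, and the exception was GLEAN_10009361.

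The largest rise among the GLEAN genes with at least 50 reads in both libraries was that of GLEAN_10001320 (2019 bp), with 231 reads in DP and 1449 in SH, 5.14-fold higher (log2 ratio 2.36, 95% exact interval from 2.16 to 2.57). GLEAN_10001344 (5922 bp) had 96 and 444 reads (log2 ratio 1.92), and GLEAN_10016018 (4182 bp) had 361 and 1582 reads (log2 ratio 1.84). GLEAN_10010300 (2973 bp) had 893 and 3344 reads, a log2 ratio of 1.62, and GLEAN_10008440 (1455 bp) had 78 and 240 reads, a log2 ratio of 1.33 with an interval from 0.96 to 1.72 that reaches below the criterion. All 5 genes had a larger part covered in SH than in DP, but they were chosen for more reads in SH, and coverage rises with reads.

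GLEAN_10014463 (774 bp) also rose, but on a small part of its model. Its reads went from 389 in DP to 1503 in SH (log2 ratio 1.66, 3.17-fold higher), and these covered 23.8% and 35.4% of its length, or 184 and 274 bp. Even spread would have covered nearly all of it at both depths.

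**Figure D5:**
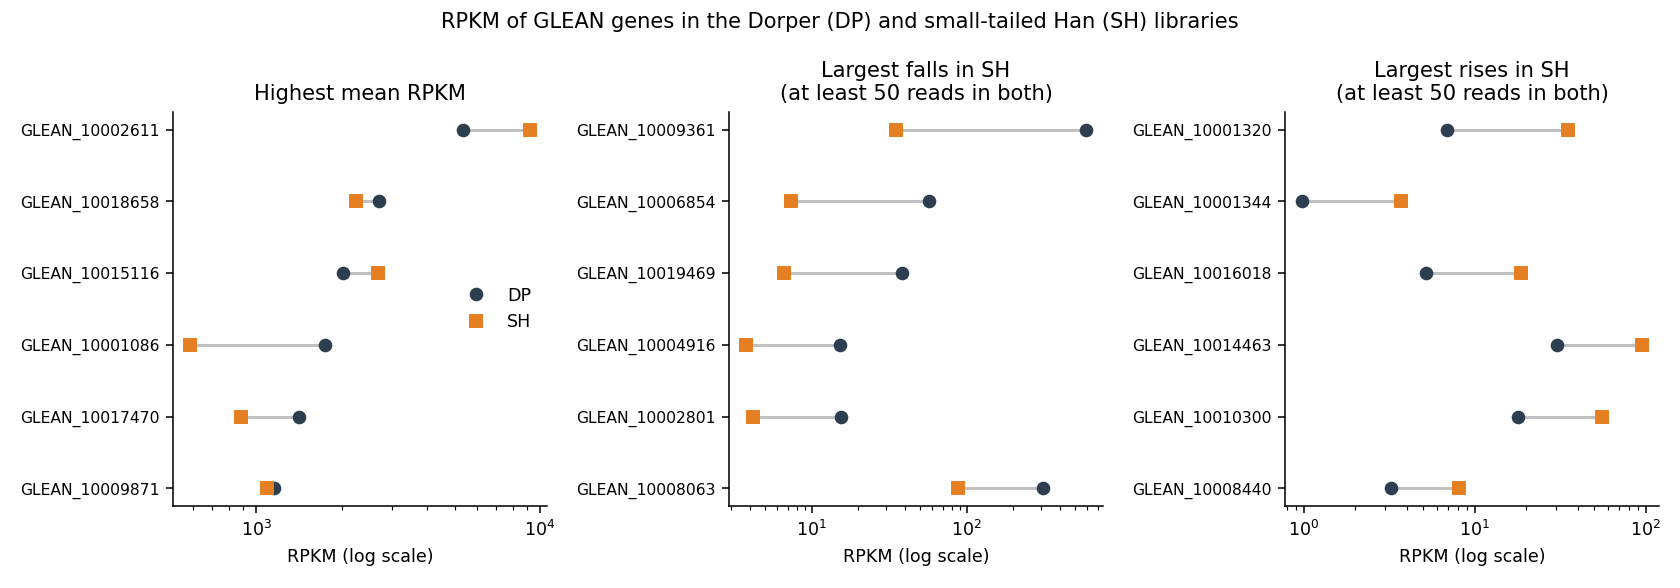
RPKM (log scale) in Dorper (DP, circles) and small-tailed Han (SH, squares) of the 6 GLEAN genes with the highest mean RPKM, the 6 with the largest falls and the 6 with the largest rises in SH among those with at least 50 reads in both libraries. Each point is 1 library without replicates, and the widest gap is that of GLEAN_10009361, from 591 to 35.2.

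Larger rises were found among genes with few reads in DP, a choice that itself favours large ratios. A further 102 GLEAN genes had at least 50 reads in one library and 1 to 49 in the other, and those named here were chosen after their values were seen. They reached 50 reads only in the library where they had more, and the intervals do not allow for this choice. The share of such genes over all genes was not counted. GLEAN_10010176 (972 bp) had 2 reads in DP and 289 in SH, which is 118-fold higher with a 95% exact counting interval from 32.5-fold to 982-fold. Its reads covered 18.5% of the gene in DP and 96.8% in SH. GLEAN_10002506 (1401 bp) had 2 and 64 reads, 26.2-fold higher with an interval from 6.97-fold to 221-fold, and GLEAN_10012115 (798 bp) had 5 and 153 reads, 25.1-fold higher with an interval from 10.5-fold to 78.3-fold. In both genes over 90% of the length was covered in SH. In the other direction, GLEAN_10002952 (1065 bp) had 132 reads in DP and 22 in SH, and GLEAN_10009675 (456 bp) had 162 and 28, with log2 ratios of -2.87 and -2.82.

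Around the criterion, the counting error was wider than the distance to it in each of the genes nearest to it. Just inside it among genes with at least 50 reads in both libraries were GLEAN_10007413 (141 reads in DP and 85 in SH) and GLEAN_10001570 (256 and 153), with log2 ratios of -1.02 and -1.03, and GLEAN_10007199 (1751 and 4377) and GLEAN_10013213 (107 and 269), with 1.03 and 1.04. Just outside were GLEAN_10015376 (82 and 51) and GLEAN_10013854 (102 and 64), with -0.97 and -0.96, and GLEAN_10005582 (219 and 525) and GLEAN_10011608 (96 and 223), with 0.97 and 0.93. The exact interval held the criterion in all 8 genes, and it was narrowest for GLEAN_10007199, from 0.95 to 1.12.

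The longest and shortest genes had few reads. The longest GLEAN gene, GLEAN_10015057, had 8 reads in DP and 6 in SH, which covered 7.43% and 5.57% of it. The shortest, GLEAN_10010299, had 2 reads in DP and 0 in SH, and was past the criterion only through the value put in place of 0. Among genes with at least 50 reads in both libraries, the longest was GLEAN_10007939 (9606 bp), with 98 and 137 reads and a log2 ratio of 0.20, and the shortest GLEAN_10000820 (162 bp), with 72 and 78 reads and a log2 ratio of -0.17. The exact intervals of the ratios of GLEAN_10015057, GLEAN_10007939 and GLEAN_10000820 held 0.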

How the data were processed

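For each library the authors deposited 1 table that lists the genes with reads. The count in it is the number of the authors' unique reads on a gene, not normalized, and reads that matched more than 1 position of the genes are not in it. Its RPKM column holds the deposited counts scaled to gene length and to the sum of the count column, and its coverage column the authors' percentage of the gene under unique reads. Before this, the authors removed reads with adaptors, with over 5% unknown bases or of low quality. The aligner, build and annotation of these tables are not given in the sources used here. Recomputed RPKM differed from those deposited by at most 7.03e-08 in relative terms. Coverage was just above 100 in 2 values, neither of a GLEAN gene.

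The tables were joined by identifier, and an absent gene was set to 0 reads. The genes and rules were chosen with earlier results of these data known. No test between breeds was made, since each has 1 library. Exact 95% binomial intervals cover counting error only, and the binomial test on reads used the read totals and an adjusted p under 0.05. Named were the GLEAN genes with the highest mean RPKM (6), the most reads (6), the largest falls and rises with at least 50 reads in both libraries (6 each), and the most reads in one library only (3 each). The 4 with the lowest coverage at 1000 reads or more in total, by the higher of the 2 libraries, were also named. So were the extremes of length and those nearest the criterion. Expected coverage assumed reads placed evenly within the gene. Alternatives were other detection limits, pseudocounts of 0.1 and 1, filters on low values, and scaling by edgeR 4.0.16 (TMM), by DESeq2 1.42.0 size factors and by the median. The calls past the criterion with the binomial test, the expected count past it, the ratio intervals and the expected coverage were checked on simulated reads. The other calculations were not. The software was R 4.3.3 and Python 3.11.15 with scipy 1.17.1, numpy 2.4.6, pandas 2.3.3 and matplotlib 3.10.9.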

Additional observations from a re-analysis of the deposited data

How the results depend on the processing

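The numbers of GLEAN genes detected stayed within 1.5 times at a limit of 3 reads or an RPKM of 0.1. At 10 reads Dorper had 1051, small-tailed Han 1069, and both 975, and at an RPKM of 1 they were 1006, 985 and 918. The 836 GLEAN genes past the fold criterion became 118 with a pseudocount of 1, by which low values draw the ratio towards 0. They were 385 among genes above 0 in both libraries, 230 where one library reached an RPKM of 1, 50 with at least 50 reads in both and 223 with the binomial test added. Under the other settings there were 648 to 826. The falls in small-tailed Han outnumbered the rises under each of these settings. As a share of the genes past the criterion, the falls were lowest with size factors and with median centring (419 against 407, or 50.7%, in each). The rescalings shift all log2 ratios by 0.07 to 0.08, and the median log2 ratio of GLEAN genes, -0.11, became -0.043 with TMM, -0.035 with size factors and -0.037 with median centring. Under each rescaling the shift took 8 of the 42 genes named by the stated rules outside their counting intervals. Among them, GLEAN_10009871 went from -0.08 to -0.0088 with TMM, and GLEAN_10002611 from 0.78 to 0.85. The median RPKM was 1.85 in Dorper and 1.68 in small-tailed Han among genes with a read, 5.95 and 5.18 among those with 10 reads, and 1.46 and 1.28 per start position, the last chosen after the data were seen. The median coverage was 78.0% and 78.7% with 10 reads, and 80.4% and 81.6% at an RPKM of 1, where fewer genes were used. The share of reads on GLEAN genes was 5.20% in Dorper and 5.37% in small-tailed Han without the 10 most read genes, and 3.60% and 3.42% without GLEAN_10002611, chosen after the data were seen. The median length was 825 bp with 10 reads in total. Of these 42 genes, GLEAN_10007413 (-0.95 with TMM) and GLEAN_10001570 (-0.96) were no longer past the criterion under each rescaling, GLEAN_10005582 (1.04) came past it under each, and GLEAN_10011608 (1.01) with size factors and, at 1.00, with median centring. With a pseudocount of 1, 7 of the 42 genes were no longer past it, GLEAN_10013056 (-0.83), GLEAN_10013648 (-0.68), GLEAN_10010299 (-0.82), GLEAN_10010632 (0.96) and GLEAN_10003382 (0.16), each with 0 reads in one library, and GLEAN_10007413 (-0.53) and GLEAN_10013213 (0.94). GLEAN_10010176, GLEAN_10002506, GLEAN_10012115, GLEAN_10002952 and GLEAN_10009675 were not among the 42, and their ratios were not put through these settings. No paired analysis was possible because each breed has 1 library. Leaving out a replicate was not possible for the same reason.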

Other observations

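The numbers in the GLEAN identifiers run from 10000174 to 10022178, and what their order stands for is not given in the sources used here. Among the 1943 GLEAN genes, 304 pairs are numbered in direct succession, and in 41 of these both genes had at least 100 reads in total. Across the 41 pairs, which share both libraries and in part a gene, the log2 ratio of the first gene had a Pearson's r of 0.47 and a Spearman's rho of 0.55 with that of the second, and r was 0.41 without the 2 pairs farthest from the median. The ratio had the same sign in 29 of the 41 pairs. Among distances of 2 to 10 numbers this share was highest at 8 numbers (10 of 15 pairs) and lowest at 10 numbers (7 of 21). For genes 2 to 10 numbers apart, with 15 to 28 pairs at each distance, Pearson's r lay between -0.61 and 0.30, and between -0.23 and 0.40 without the 2 pairs farthest from the median at each distance. At a distance of 8 numbers (15 pairs) r without these 2 pairs was 0.40 and Spearman's rho 0.46, so values about as high as in direct succession also occurred farther apart. The pattern was noticed in these data and is given as a description. As examples chosen after their values were seen, GLEAN_10001086 had a log2 ratio of -1.58 and GLEAN_10001087 one of -0.78, whereas GLEAN_10006853 had one of -0.31 and GLEAN_10006854 one of -2.97.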
